A study of Homo sapiens with 5 samples.

Results

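The genes described here are the nuclear-encoded genes of oxidative phosphorylation and the rows that share their symbols in single SW480 cells from zebrafish xenografts. They were chosen by symbol alone, as every row listed in all 5 libraries that starts with NDUFA, NDUFB, NDUFC, NDUFS, NDUFV, UQCR, COX4, COX5, COX6, COX7, COX8 or ATP5, or that is SDHA, SDHB, SDHC or SDHD. Of 98 such rows in any library, 95 were listed in all 5, out of 15022 human genes kept. COX7B2, COX8C and NDUFA6-AS1 were missing from at least 1 library and had between 0 and 3 UMIs in each. The 95 genes held 77 structural subunits of complexes I to V (37, 4, 9, 11 and 16) and 7 complex I assembly factors. The rest were 3 tissue or condition isoforms or relatives of complex IV subunits, 6 pseudogenes, antisense or readthrough transcripts, and ATP5S and ATP5SL. ATP5S and ATP5SL are not structural subunits and were grouped as regulators of complex V or genes that share the prefix.

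SW480 is an established human colorectal cancer line. Its cells, carrying a lentiviral GFP, had been injected into zebrafish embryos at 2 dpf, and tumors were taken out at 1 or 4 days post injection (dpi), pooled and dissociated for sorting of single live cells into plates. Libraries 6, 7 and 8 were made at 1 dpi and libraries 10 and 11 at 4 dpi, each from 1 plate of 384 wells, with no other treatment in either group. It is not given whether plates of one time point held cells of separate pools, so that p values may measure technical spread only. In SORT-seq each RNA molecule is counted once by a unique molecular identifier (UMI) at its 3′ end, and levels below are UMIs per 1000000 after TMM scaling (CPM), not divided by transcript length.

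Oxidative phosphorylation passes electrons from NADH (complex I) and succinate (complex II) through complex III to oxygen at complex IV, and complex V uses the resulting proton gradient to make ATP. Complexes I, III, IV and V combine subunits encoded in the nucleus with subunits encoded by the mitochondrial genome (MT- genes), while complex II is encoded in the nucleus alone. Assembly factors such as the NDUFAF proteins build complex I and are not part of the finished enzyme.

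Cells with more than 2000 genes and less than 25% MT- UMIs (spike-ins in the total, so that shares of human UMIs can lie slightly above) were kept, which gave 228, 142 and 163 cells at 1 dpi (libraries 6, 7, 8) and 132 and 161 at 4 dpi (libraries 10, 11). These cells held between 3789627 and 7503652 UMIs per library, with a median of 18823 to 36197 per cell. Median MT- shares were between 10.9% and 12.5% at 1 dpi and were 13.1% and 12.5% at 4 dpi. The plates reuse the same well barcodes by design, and 260 of the 296 barcodes with a passing cell occurred in more than 1 library. The names under which the counts were deposited carry a tag, shared by libraries 6, 7 and 10 and differing from that of libraries 8 and 11. It was taken as the flow cell, which the sample labels do not name. Libraries 6, 7 and 10 had between 107 and 119 UMIs per spike-in UMI, against 55.9 and 49.5 in libraries 8 and 11. Of 12 markers of colon epithelium 10 were kept, and their summed level was between 4965 and 6128 CPM at 1 dpi and between 5069 and 5233 at 4 dpi, while KRT20 and CDX1 were not among the kept rows. KRT8 had the highest level of the list, in which CDH1, KRT18 and KRT19 fell and EPCAM rose between the time points (edgeR, median log2 change of the 10 genes -0.38). The kept markers of macrophages (5 of 13, without PTPRC) summed to between 11.2 and 13.2 CPM at 1 dpi and 5.28 and 6.31 at 4 dpi, those of fibroblasts (2 of 9) to between 22.9 and 26.6 and then 32.5 and 44.2, and those of erythroid cells (1 of 7) to between 4.40 and 9.41 and then 2.64 and 3.79. Neutrophil (1 of 9) and endothelial (2 of 7) markers were between 1.25 and 3.96 CPM in each library. The only human cells injected were SW480 cells, and the source of these low marker counts was not tested.

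Transcripts of complexes I, III and IV took a larger share of the nuclear-encoded UMIs at 4 dpi, and those of the complex I assembly factors a smaller one. For all 95 genes together the share was 1.84%, 1.89% and 1.90% in the libraries of 1 dpi (6, 7, 8) and 2.11% and 2.01% in those of 4 dpi (10, 11). The groups did not overlap, and the means were 1.88% ± 0.0325 (SD, n = 3) and 2.06% ± 0.0685 (SD, n = 2). Complex I took 0.532%, 0.556% and 0.559% at 1 dpi and 0.650% and 0.633% at 4 dpi. Complex III took 0.138%, 0.146% and 0.139% against 0.169% and 0.161%. In both, the 4 dpi mean was 1.17 times that of 1 dpi. Gene by gene, the median log2 change was 0.23 in complex I and 0.02 in complex III. Complex IV took 0.535%, 0.553% and 0.555% against 0.623% and 0.586%, also without overlap. Its 4 dpi mean was 1.10 times that of 1 dpi, and the median log2 change of its genes was 0.04. Complex V took 0.516%, 0.520% and 0.528% against 0.555% and 0.528%, so that library 11 was at the level of library 8. Complex II, the one without MT- subunits, took 0.0406%, 0.0428% and 0.0422% against 0.0403% and 0.0374%. Its 4 dpi libraries were both below the 1 dpi ones, with library 10 close to library 6. The 7 assembly factors of complex I took 0.0403%, 0.0397% and 0.0416% against 0.0342% and 0.0334%, which is 0.834 times the 1 dpi mean. These shares are sums over chosen genes and were given no test. With a maximum of 15% MT- UMIs per cell the log2 ratio of the means for all 95 genes went from 0.13 to 0.05, and that of complex V from 0.06 to -0.05.

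**Figure D1:**
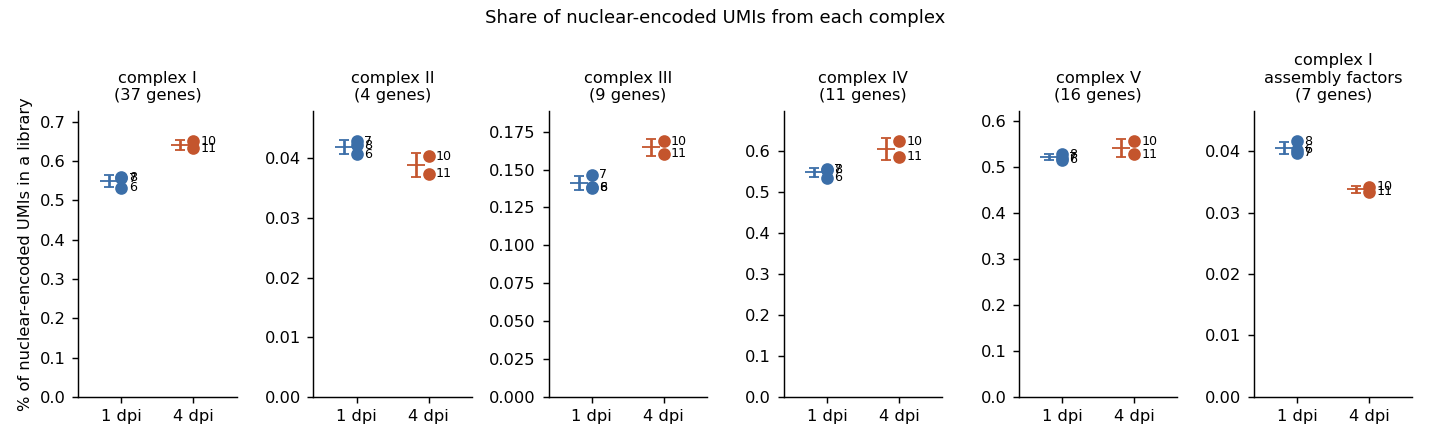
Each point is 1 library (its number beside it), the y axis is the percentage of nuclear-encoded UMIs that came from the genes of one complex (each panel starts at 0 and has its own scale), and bars are the mean ± SD of the 3 libraries at 1 dpi and the 2 at 4 dpi. Complexes I and III (1.17 times for both) and complex IV (1.10 times) lay higher at 4 dpi, the assembly factors of complex I lay lower, and complex V did not separate clearly.

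Gene by gene, 22 of the 90 genes tested rose and 5 fell between 1 and 4 dpi (edgeR's quasi-likelihood test, adjusted p under 0.05 over 12646 genes). Over all genes tested 13.4% rose and 14.2% fell, against 24.4% and 5.56% of these 90. The median log2 change was 0.08 for the 90 genes and 0.00 for all genes. The libraries of 4 dpi lay wholly above those of 1 dpi for 37 of the 90 genes (41.1%, against 27.0% of all genes) and wholly below for 13 (27.6% of all genes). ATP5EP2, ATP5J2-PTCD1, ATP5L2, COX6B2 and NDUFAF4P1, with 16 to 34 UMIs each, were too low to be tested.

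Complex I, which feeds electrons from NADH into the chain, had 13 of its 37 subunits higher and 0 lower (edgeR, 0 lower also at an unadjusted p under 0.05 and with DESeq2), with a median log2 change of 0.23. NDUFB10, an accessory subunit of the membrane arm, had 51.1, 62.8 and 57.1 CPM at 1 dpi and 109 and 102 at 4 dpi. Both 4 dpi libraries lay far above the 3 of 1 dpi, with a log2 change of 0.89 ± 0.12 (SE, edgeR adjusted p = 6.48e-05), or 1.85-fold. NDUFB1, another accessory subunit of that arm, had 61.4, 72.1 and 74.1 against 110 and 101 CPM, with a log2 change of 0.61 ± 0.12 (edgeR adjusted p = 0.00117). NDUFA2, an accessory subunit of the peripheral arm, had 96.3, 101 and 98.9 against 145 and 139, and its log2 change was 0.53 ± 0.10 (edgeR adjusted p = 0.00108). The groups were apart in each of these genes.

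Of the core subunits, which carry the cofactors, NDUFS7, NDUFS8 and NDUFV1 rose, which is 3 of 7, and the median log2 change of the 7 was 0.27. NDUFV1, which binds the flavin that takes electrons from NADH, had 78.1, 87.1 and 85.7 against 113 and 116 CPM, a log2 change of 0.45 ± 0.10 (edgeR adjusted p = 0.00464). NDUFS7, an iron-sulfur subunit, had 29.8, 37.6 and 37.6 against 50.1 and 48.9, and rose by 0.51 ± 0.14 on the log2 scale (edgeR adjusted p = 0.0124). NDUFS8, the iron-sulfur subunit beside it, had 52.7, 61.7 and 59.0 against 65.2 and 95.0. Its 2 libraries of 4 dpi differed from each other, and its log2 change of 0.47 ± 0.14 (edgeR adjusted p = 0.0217) was 0.18 without library 11 (adjusted p = 0.467). The accessory subunit with the most UMIs, NDUFS6, had 288, 286 and 290 against 363 and 395 CPM and rose by 0.39 ± 0.09 (edgeR adjusted p = 0.00402).

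Of the 7 assembly factors of complex I, 3 fell and 1 rose. NDUFAF5, which modifies NDUFS7 during assembly, had 65.9, 59.8 and 62.6 CPM at 1 dpi and 41.1 and 44.0 at 4 dpi. NDUFAF4, an early-acting factor, had 82.0, 82.0 and 98.3 against 61.2 and 60.6, and NDUFAF6 had 50.3, 53.5 and 59.6 against 42.8 and 41.1. All 3 fell, with no overlap between the groups, by 0.56 ± 0.12, 0.52 ± 0.12 and 0.37 ± 0.13 on the log2 scale (edgeR adjusted p = 0.00313, 0.00512 and 0.0412). NDUFAF3, which works together with NDUFAF4, had 14.7, 22.4 and 15.3 against 32.2 and 31.2 and rose by 0.87 ± 0.19 (edgeR adjusted p = 0.00316). NDUFAF1, NDUFAF2 and NDUFAF7 had log2 changes of -0.27, -0.27 and -0.15 and did not pass the test.

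Complex II held 1 gene that rose and 1 that fell. SDHB, its iron-sulfur subunit, had 193, 196 and 193 CPM in the libraries of 1 dpi and 143 and 145 in those of 4 dpi. The values within each group were close and the groups far apart, with a log2 change of -0.43 ± 0.09 (edgeR adjusted p = 0.00339). SDHA, the flavoprotein that oxidizes succinate, had 38.0, 45.0 and 42.0 against 53.4 and 57.5 and rose by 0.42 ± 0.13 (edgeR adjusted p = 0.0221). The membrane anchors SDHC and SDHD had log2 changes of -0.03 ± 0.15 and 0.04 ± 0.13 and overlapping libraries. The ratio of SDHB to SDHA was thus lower at 4 dpi, but this ratio was chosen after the values were seen and was given no test.

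In complex III, which passes electrons from ubiquinol to cytochrome c, UQCRQ and UQCRC1 rose and the other 7 genes did not pass the test. The median log2 change of the 9 genes was 0.02. UQCRQ, a small subunit, had 410, 427 and 422 against 585 and 513 CPM, with a log2 change of 0.39 ± 0.09 (edgeR adjusted p = 0.00486). UQCRC1, one of the large core proteins, had 93.4, 120 and 118 against 136 and 160 and rose by 0.43 ± 0.12 (edgeR adjusted p = 0.0147). UQCRFS1, the Rieske iron-sulfur protein, had a log2 change of 0.00 ± 0.09. UQCRH and its near copy UQCRHL may share reads, and their values are uncertain for that reason.

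In complex IV 2 of 11 subunits rose and the other 9 did not pass the test. COX5B, which sits on the matrix side of the complex, had 233, 247 and 229 CPM at 1 dpi and 337 and 368 at 4 dpi, a log2 change of 0.58 ± 0.09 (edgeR adjusted p = 3.01e-04). COX8A, a small membrane subunit, had 398, 434 and 448 against 611 and 599 and rose by 0.51 ± 0.09 (edgeR adjusted p = 6.74e-04). The groups were apart in both genes. The other subunits had log2 changes from -0.07 (COX7B) to 0.23 (COX6B1), and the subunit with the most UMIs, NDUFA4, had 835, 862 and 874 against 911 and 852 CPM, with overlapping libraries. Of the isoforms, NDUFA4L2, which hypoxia induces, had between 2.34 and 5.88 CPM in each library, COX6B2 had 33 UMIs in all and COX7A2L, a factor of supercomplex assembly, had a log2 change of -0.03 ± 0.10.

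Of 15 genes of complex V tested, 2 rose, a share close to the 13.4% of all genes, and 0 fell (edgeR, 2 lower at an unadjusted p under 0.05, 0 with DESeq2). ATP5D, the delta subunit of the F1 central stalk, had 56.7, 59.0 and 64.9 CPM against 95.2 and 103, a log2 change of 0.72 ± 0.11 (edgeR adjusted p = 2.45e-04). ATP5I, of the membrane part, had 74.6, 95.3 and 87.8 against 129 and 102 and rose by 0.43 ± 0.13 (edgeR adjusted p = 0.0199). The catalytic beta subunit ATP5B had 538, 567 and 586 against 466 and 517, with both 4 dpi libraries below those of 1 dpi, and alpha (ATP5A1) and gamma (ATP5C1) were likewise lower in each 4 dpi library, but with log2 changes of -0.20, -0.15 and -0.24 none of the 3 passed the test (edgeR adjusted p = 0.116, 0.242 and 0.0789). ATP5J2, with the most UMIs of complex V, had a log2 change of 0.20 ± 0.10 (edgeR adjusted p = 0.138). ATP5SL, which carries the prefix without being a subunit, fell by 0.31 ± 0.11 (edgeR adjusted p = 0.0489). NDUFV2-AS1, antisense to NDUFV2, had 1.14 to 2.41 CPM at 1 dpi and 4.94 and 5.54 at 4 dpi (log2 change 1.48 ± 0.41, edgeR adjusted p = 0.0126). It had 74 UMIs in all, and as the strand used in counting is not given, its reads cannot be told apart from those of its partner.

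**Figure D2:**
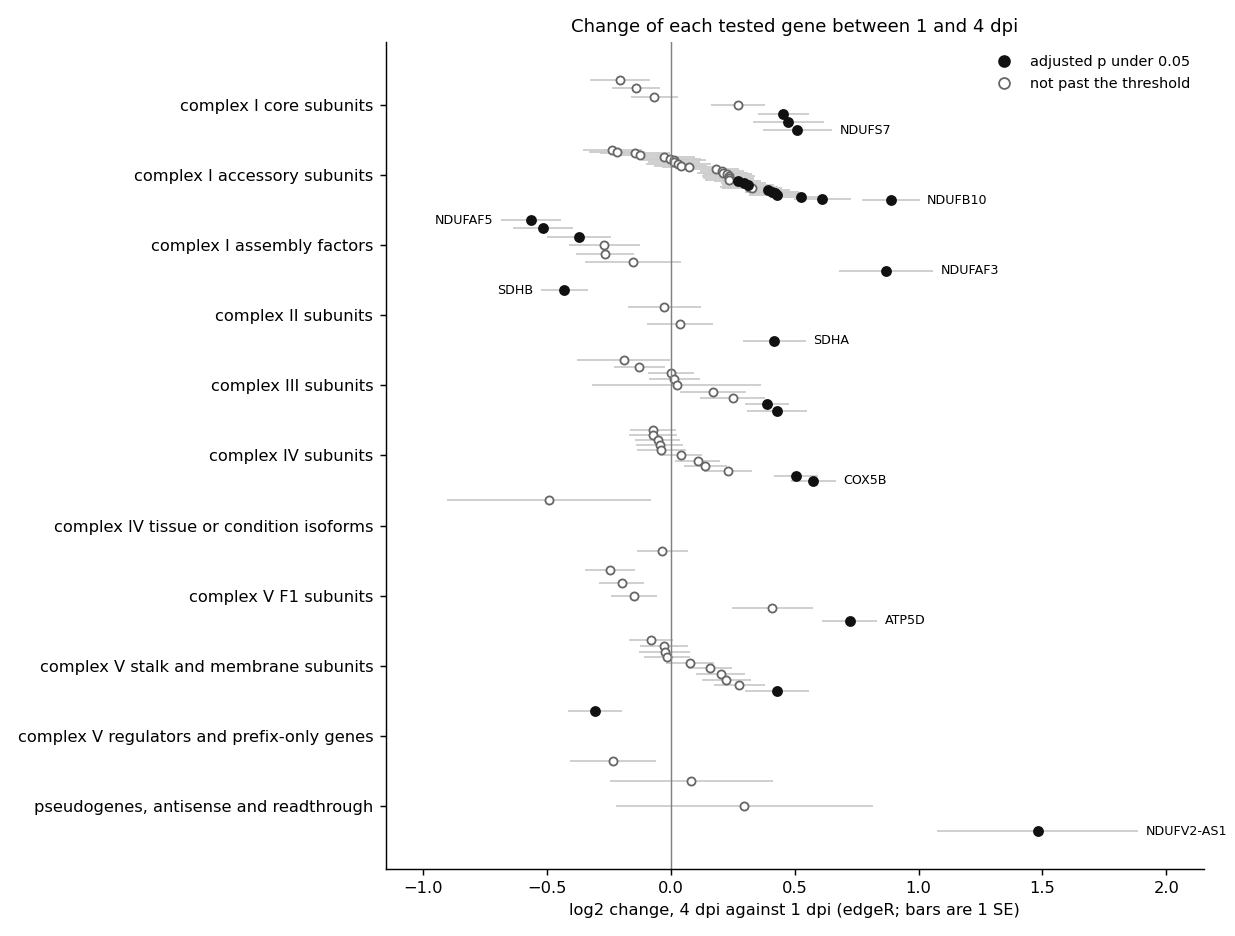
Each point is 1 of the 90 tested genes, placed by its role, with its log2 change between 1 and 4 dpi on the x axis and 1 SE as a bar. Filled points passed an adjusted p of 0.05. Complex I subunits lay mostly to the right of 0 (median 0.23), while 6 of the 7 assembly factors lay to the left, and SDHA and SDHB lay on opposite sides.

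**Figure D3:**
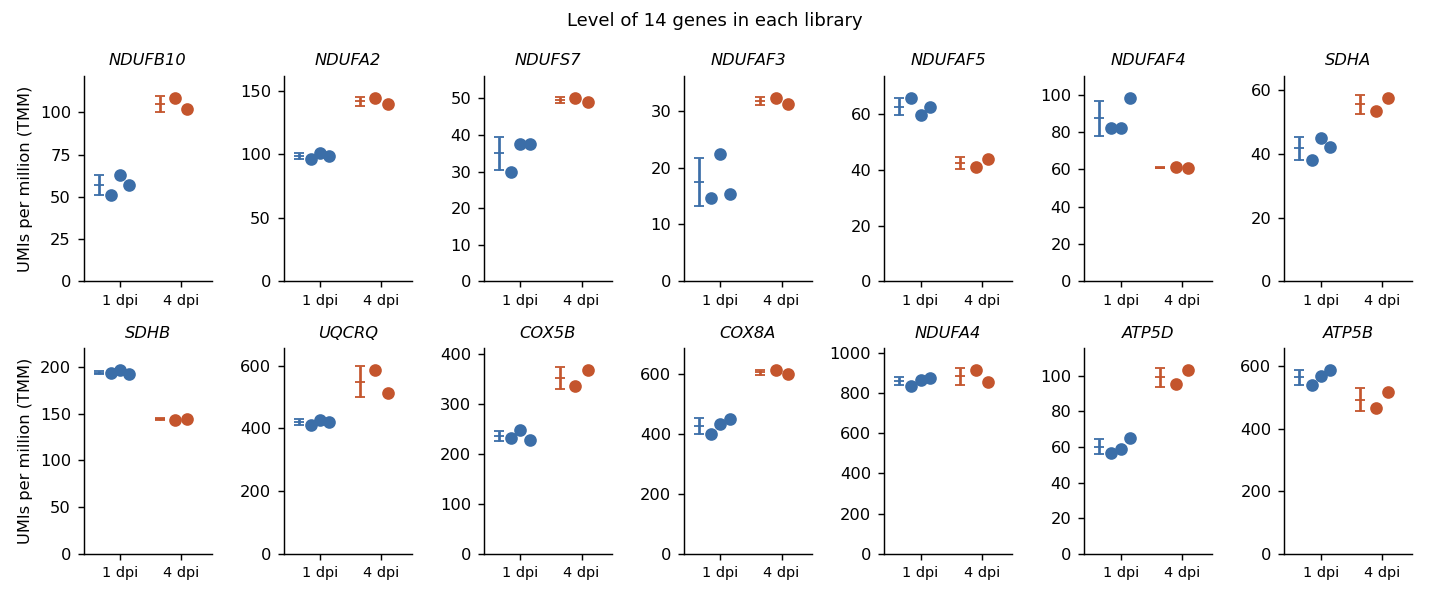
The level of 14 genes in CPM (TMM-normalised, axes start at 0) is plotted for each of the 3 libraries at 1 dpi (blue) and the 2 at 4 dpi (red), with the mean ± SD to the left. NDUFB10, ATP5D, COX5B and COX8A were apart between the time points, as was SDHB in the opposite direction, and NDUFA4 overlapped.

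Of the 27 calls, 13 held whichever library was left out. These were ATP5D, COX5B, COX8A, NDUFA2, NDUFA5, NDUFAF3, NDUFB1, NDUFB10, NDUFS6 and NDUFV1 among those that rose and NDUFAF4, NDUFAF5 and SDHB among those that fell. The other 14 calls were lost when some library was left out: UQCRQ, NDUFV3 and NDUFV2-AS1 without library 10, NDUFB7 without library 11, NDUFS7 and ATP5I without library 6 or 10, and SDHA, UQCRC1 and NDUFS8 without library 6 or 11. NDUFA1, NDUFA11, NDUFB11, NDUFAF6 and ATP5SL were lost without any of 3 or 4 libraries. The highest adjusted p (edgeR) was then 0.0656 for UQCRQ, 0.0886 for NDUFV2-AS1, 0.0536 for NDUFS7, 0.251 for ATP5I, 0.134 for SDHA, 0.148 for UQCRC1, 0.158 for NDUFAF6 and 0.165 for ATP5SL. With spike-in size factors none of the 90 genes passed the test in either direction (edgeR, 0 also at an unadjusted p under 0.05). Of all 12646 genes, 1 rose and 2 fell in that fit. With the flow cell added to it as a term, 10 of the 90 rose and 4 fell. The 10 were 11.1% of the 90 genes, close to the share of all genes that rose (1201 of 12646). With a maximum of 15% MT- UMIs 14 rose (15.6%, against 10.4% of all genes) and 6 fell, and the median log2 change was 0.01. There UQCRQ had a log2 change of 0.25 (edgeR adjusted p = 0.0688) and NDUFS7 one of 0.24 (edgeR adjusted p = 0.315). UQCRC1 did not pass the test there either. Without a trend on base composition in each library 21 rose (23.3%, against 13.0% of all genes) and 4 fell, of which 21 genes were among the 27. The calls lost were NDUFAF6 and the complex I subunits NDUFA11, NDUFB7, NDUFB11, NDUFS7 and NDUFS8. Of the core subunits NDUFS7, NDUFS8 and NDUFV1, NDUFV1 alone kept its call.

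The genes that rose had transcripts with a higher GC content. The 22 that rose had a median GC content of 57.1% and a median length of 713.5 bases, against 45.5% and 916 bases in the 63 that did not pass the test and 44.3% and 1795 bases in the 5 that fell (canonical transcripts of GENCODE, all 90 matched). Among all genes tested, those that rose also had a higher median GC content (52.8%) than those that fell (45.2%).

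The region around the start site was read for 4 genes that passed the test and hold strings of factors known to act on respiratory genes. These were COX5B and NDUFS6, which rose, and NDUFAF5 and SDHB, which fell. Of the 95 genes, 73 had a promoter in the RefSeq table (GRCh38.p14), from 250 bases before to 50 bases after the start site. A string for each of 3 factors was searched on both strands: GCGCATGC for NRF1, CCGGAAGT for the ETS family (to which GABP belongs) and ATGGCGGC for YY1. The NRF1 string overlaps its own reverse complement where GCGCATGCGC occurs, and such a pair was counted as 1 promoter. NRF1's string was in 15 of the 73 promoters (20.5%, against 3.27% of 27305 promoters and 5.69% of the 9907 promoters of genes tested). The ETS string was in 12.3% (4.44% and 9.10%) and that of YY1 in 16.4% (3.21% and 6.52%). Only NDUFA7 (-154) and NDUFS8 (-177) had the YY1 string before the start site, and in the other genes with a match it began between 12 and 31. That string begins with ATG, and whether its matches after the start site are the start of the coding sequence was not tested. Any of the 3 was in 41.1% of the 73 (10.0% of all promoters and 19.4% of those of genes tested), in 9 of the 21 promoters of genes that rose and in 3 of the 4 of genes that fell. The matches thus occurred on both sides of the time change. COX5B (chr2:97645812-97646111, plus strand), NDUFS6 (chr5:1801157-1801456, plus strand), NDUFAF5 (chr20:13784778-13785077, plus strand) and SDHB (chr1:17053983-17054282, minus strand) are written 5′ to 3′ in the gene's direction, with the matches in capitals. In COX5B these begin at -136 (NRF1), -37 and -5 (ETS), in NDUFS6 at -46 (NRF1) and 12 (YY1), in NDUFAF5 at -4 and -2 (NRF1, both strands) and in SDHB at -200 (NRF1) and 14 (YY1), counted from the start site as base 1.
COX5B: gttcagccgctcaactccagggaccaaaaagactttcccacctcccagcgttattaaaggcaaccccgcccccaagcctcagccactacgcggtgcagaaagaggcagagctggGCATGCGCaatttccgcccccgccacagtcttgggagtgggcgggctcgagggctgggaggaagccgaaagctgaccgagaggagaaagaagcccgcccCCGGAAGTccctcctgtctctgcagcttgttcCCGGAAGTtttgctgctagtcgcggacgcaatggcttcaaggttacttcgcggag
NDUFS6: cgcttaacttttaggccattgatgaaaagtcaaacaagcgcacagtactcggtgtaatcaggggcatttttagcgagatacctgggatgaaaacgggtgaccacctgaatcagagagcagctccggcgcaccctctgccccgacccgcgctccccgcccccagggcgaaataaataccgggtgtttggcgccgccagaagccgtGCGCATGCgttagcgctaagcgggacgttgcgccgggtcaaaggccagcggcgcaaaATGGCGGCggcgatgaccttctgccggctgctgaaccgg
NDUFAF5: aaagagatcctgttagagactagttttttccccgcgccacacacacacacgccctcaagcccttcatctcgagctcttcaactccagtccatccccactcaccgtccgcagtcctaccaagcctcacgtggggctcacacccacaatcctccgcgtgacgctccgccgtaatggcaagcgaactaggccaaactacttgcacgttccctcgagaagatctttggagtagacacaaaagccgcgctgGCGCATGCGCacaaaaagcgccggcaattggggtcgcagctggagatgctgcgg
SDHB: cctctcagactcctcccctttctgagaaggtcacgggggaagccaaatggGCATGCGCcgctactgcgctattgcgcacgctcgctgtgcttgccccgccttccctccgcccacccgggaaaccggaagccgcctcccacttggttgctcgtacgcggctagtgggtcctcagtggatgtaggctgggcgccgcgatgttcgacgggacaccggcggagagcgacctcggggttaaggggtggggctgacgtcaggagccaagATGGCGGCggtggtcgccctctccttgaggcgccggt

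Nuclear OXPHOS transcripts also varied from cell to cell together with the MT- transcripts. Each library's cells were ranked by MT- share, and the lowest and highest tertiles were compared over nuclear genes with the library as a block. Medians of the MT- share were between 7.01% and 7.45% in the low tertile and between 15.7% and 17.3% in the high one at 1 dpi, and 4.87% and 6.27% against 20.1% and 20.6% at 4 dpi. The 95 genes took 1.61%, 1.73% and 1.74% of nuclear-encoded UMIs in the low tertile at 1 dpi and 1.83% and 1.73% at 4 dpi. In the high tertile they took 2.01%, 2.12% and 2.07% at 1 dpi and 2.58% and 2.30% at 4 dpi. The share was ordered from the low over the middle to the high tertile in each of the 5 libraries, and the ratio of high to low was 1.25, 1.23 and 1.18 at 1 dpi and 1.41 and 1.33 at 4 dpi. In the low tertile the libraries of the 2 time points overlapped, and in the high tertile those of 4 dpi were above.

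Of 86 genes tested, 52 were higher in the high tertile and none lower (edgeR's quasi-likelihood test, adjusted p under 0.05 over 10103 nuclear genes, 1 lower at an unadjusted p under 0.05, 0 lower with DESeq2). Over all genes 9.70% were higher and 7.63% lower. The median log2 difference was 0.50 for the 86 genes and -0.00 for all genes. For 59 of the 86 (68.6%) the high tertile was above the low one in all 5 libraries, against 16.2% of all genes. By complex, 26 of 37 genes were higher in complex I, 0 of 4 in complex II, 4 of 9 in complex III, 10 of 11 in complex IV and 11 of 15 in complex V, over both time points. Of the assembly factors NDUFAF3 alone was higher of 7.

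NDUFA3, an accessory subunit of complex I, had the greatest difference of the 86 genes. It had 68.0, 88.1 and 95.0 CPM in the low and 123, 157 and 127 in the high tertiles of 1 dpi, and 92.8 and 63.1 against 238 and 175 at 4 dpi. The log2 difference was 0.98 ± 0.17 (edgeR adjusted p = 0.00934, higher in 5 of 5 libraries). NDUFB2, another accessory subunit, had 134, 134, 189, 179 and 130 against 241, 250, 293, 361 and 289 in libraries 6, 7, 8, 10 and 11, and its log2 difference was 0.91 ± 0.12 (edgeR adjusted p = 0.00934, 5 of 5). The log2 differences of NDUFAF3 (0.96 ± 0.24), NDUFS5 (0.92 ± 0.20) and UQCR11 (0.88 ± 0.15), a small subunit of complex III, were of like size, each higher in 5 of 5 libraries (edgeR adjusted p = 0.0229, 0.0145 and 0.00934). NDUFAF1, an assembly factor, was lower in the high tertile of each library, at a log2 difference of -0.45 ± 0.19 that did not pass the test (edgeR adjusted p = 0.113). The 4 subunits of complex II had log2 differences between 0.02 (SDHA) and 0.31 (SDHD).

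Within each time point, from the same model, 54 of the 86 genes were higher and none lower at 1 dpi (edgeR, 0 lower at an unadjusted p under 0.05; 7.77% and 6.00% of all genes), and 57 were higher and 2 lower at 4 dpi (20.9% and 20.2% of all genes). The 2 lower at 4 dpi were NDUFA5 and NDUFAF1. In complex II, 2 of the 4 subunits were higher at 1 dpi, SDHB by 0.42 ± 0.12 and SDHD by 0.46 ± 0.14 on the log2 scale (edgeR adjusted p = 0.0178 and 0.0241), and 0 were higher at 4 dpi (edgeR, 0 at an unadjusted p under 0.05). Depth moved with the MT- share. High tertiles had a median of 4740 to 5917 genes per cell, against 5340 to 6692.5 in low ones. Where the tertiles were drawn within bins of depth 51 genes were higher (59.3%, against 9.32% of all genes). With cells thinned to 5000 UMIs 29 of 79 were higher (36.7%, against 7.25% of all genes). Without library 10, 26 of 86 were (30.2%, against 2.31% of all genes), so that calls became fewer among all genes as well.

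Other lists differed in both directions between the tertiles. Cytosolic ribosomal proteins, a list chosen after the data had been seen, had 71 of 80 genes higher in the high tertile (88.8%) and 0 lower (edgeR, 0 at an unadjusted p under 0.05 and with DESeq2), with a median log2 difference of 0.56. Of the glycolysis list 12 of 17 were higher (median 0.53), of the mitochondrial ribosomal proteins 17 of 76 were higher and 1 lower (median 0.17; at 4 dpi alone 21 higher and 11 lower), and of the citric acid cycle 4 of 13 were higher (median 0.16). The share of the mitochondrial ribosomal proteins was 1.00, 1.05 and 1.14 times as high in the high tertile at 1 dpi and 0.971 and 0.973 times at 4 dpi. The hypoxia list had 1 of 11 higher and 2 lower (median -0.37), and at 4 dpi alone 1 higher and 7 lower. Cytochrome c and coenzyme Q genes had 1 of 13 higher and 1 lower (median -0.09), and mitochondrial biogenesis had 2 of 23 higher and 1 lower (median -0.06). Transcripts of the 52 OXPHOS genes that were higher had a median length of 676.5 bases, against 2049 in the 34 that did not pass the test, and over all genes tested those that were higher had 1941 against 3459.

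Cell by cell, Spearman's rho between the MT- share and the OXPHOS share of nuclear-encoded UMIs was 0.34, 0.30 and 0.30 at 1 dpi (142 to 228 cells a library) and 0.39 and 0.35 at 4 dpi (132 and 161 cells). The cells of a library share its plate and sequencing, and both shares come from the same counts. With cells thinned to 5000 UMIs rho was between 0.25 and 0.42. With all human UMIs as the denominator it was between 0.12 and 0.15. Without a maximum on the MT- share rho was 0.34, 0.33 and 0.30 at 1 dpi and 0.07 in both libraries of 4 dpi. Dropping the maximum took the cells from 228, 142 and 163 to 229, 145 and 164 at 1 dpi. At 4 dpi it took them from 132 and 161 to 157 and 191. The 1 dpi values thus had few added cells behind them, and the filter removed more cells at 4 dpi. By complex, rho was between 0.27 and 0.41 for complex IV, between 0.30 and 0.38 for complex I, between 0.23 and 0.36 for complex V and between 0.11 and 0.35 for complex III. For complex II it was 0.02, 0.13 and 0.11 at 1 dpi, where complex III had 0.17, 0.14 and 0.11, and -0.14 and -0.14 at 4 dpi, below the other complexes. Cells differed widely within a library, with 5% of them below 1.20% to 1.34% and 5% above 2.83% to 3.11%.

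**Figure D4:**
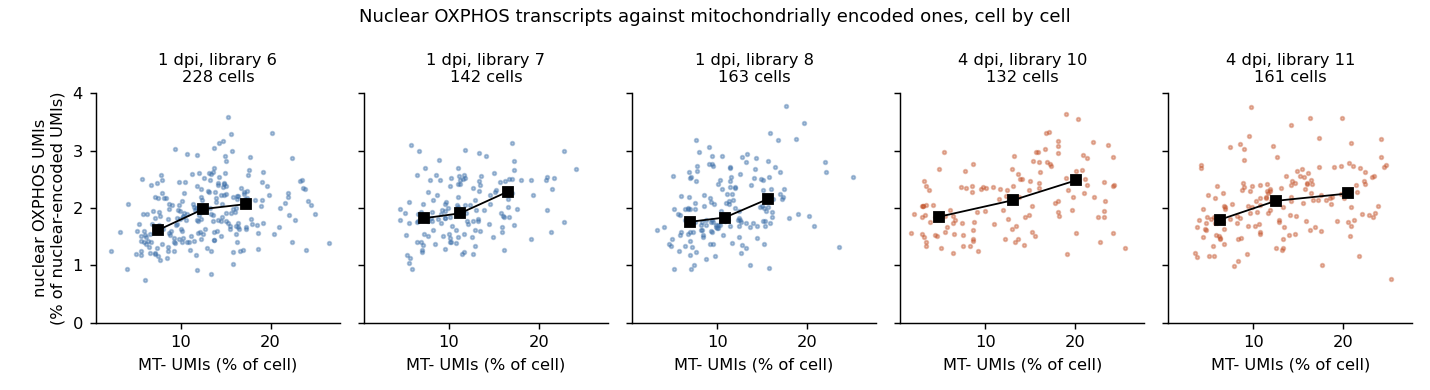
Each point is 1 cell, with its MT- share on the x axis and its share of nuclear OXPHOS transcripts among nuclear-encoded UMIs on the y axis, in 1 panel per library. Squares are the medians of the low, middle and high tertiles of MT- share. The squares lie higher from left to right in all 5 libraries, within a wide scatter (rho between 0.30 and 0.39).

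Whether the relation to the MT- share differed between 1 and 4 dpi was tested as an interaction. It was stronger at 4 dpi for 8 of the 86 genes and weaker or opposite for 2 (edgeR, adjusted p under 0.05), against 7.61% and 9.33% of all genes. NDUFS5, an accessory subunit of complex I, had 99.3, 119 and 148 CPM in the low and 160, 192 and 163 in the high tertiles of 1 dpi, and 94.1 and 85.3 against 288 and 244 at 4 dpi. Its log2 difference was 0.51 ± 0.13 at 1 dpi and 1.57 ± 0.17 at 4 dpi, and the interaction was 1.05 ± 0.22 (edgeR adjusted p = 0.00139). NDUFA5, an accessory subunit that joins the matrix arm, was higher in the high tertile in the 3 libraries of 1 dpi (196, 221 and 161 against 238, 289 and 229) and lower in both of 4 dpi (329 and 386 against 276 and 270), with an interaction of -0.78 ± 0.18 (edgeR adjusted p = 0.00463). SDHB did the same, with 181, 190 and 194 against 250, 277 and 226 at 1 dpi and 166 and 194 against 147 and 157 at 4 dpi (-0.66 ± 0.20, edgeR adjusted p = 0.0224). The tertiles were further apart in MT- share at 4 dpi, and how far this enters the difference was not tested. Without library 11 NDUFS5 alone passed the test.

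**Figure D5:**
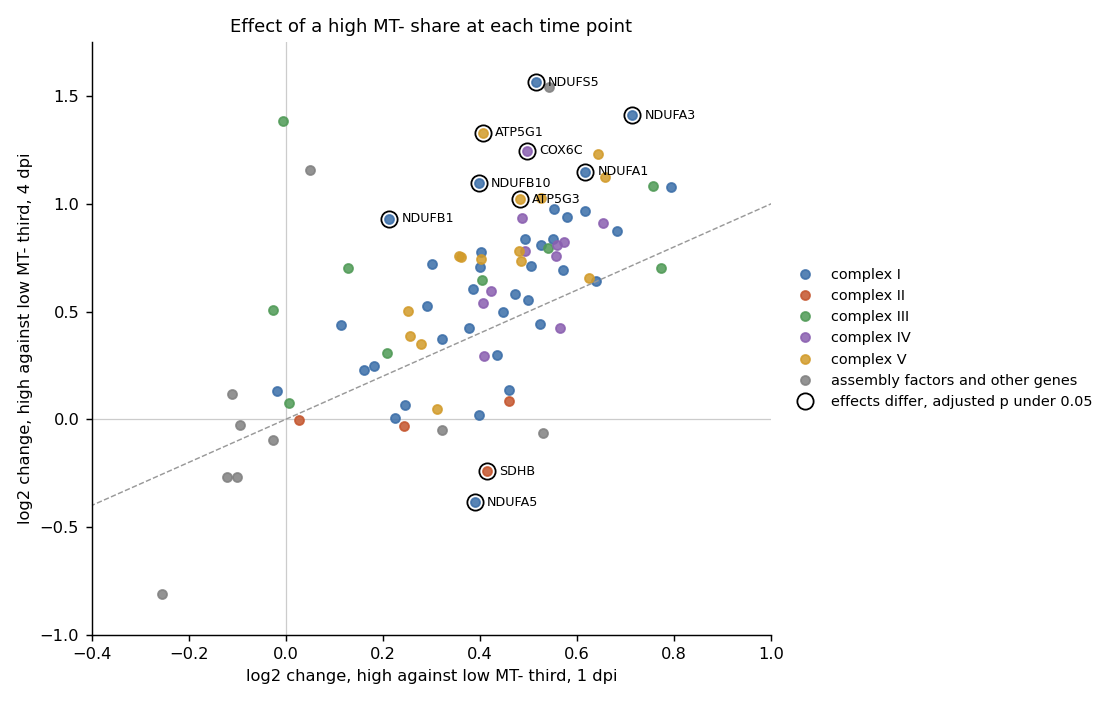
Each point is 1 of 86 genes, with its log2 difference between the high and low tertiles of MT- share at 1 dpi on the x axis and at 4 dpi on the y axis, colored by complex. The dashed line marks equal differences, and circles mark the 10 genes whose differences passed the interaction test. Of the 86 genes 65 lay above the line, the 4 subunits of complex II lay below it, and SDHB and NDUFA5 were positive at 1 dpi and negative at 4 dpi. The difference was also greater at 4 dpi for 73 of 80 cytosolic ribosomal proteins and for 5072 of all 10103 genes (not drawn).

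Other genes of the pathway moved in both directions between the time points, as did genes at large (13.4% of all genes tested rose and 14.2% fell). Of 13 MT- subunits, MT-ND1 and MT-ND5 of complex I rose and MT-CYB, MT-CO2 and MT-ATP6 fell, from -0.34 (MT-CYB) to 0.45 (MT-ND1) on the log2 scale. MT- transcripts of complex I took 4.86%, 4.98% and 4.63% of human UMIs at 1 dpi and 5.17% and 5.43% at 4 dpi, and MT-CYB of complex III took 0.799%, 0.825% and 0.708% against 0.614% and 0.634%. Among 40 other assembly factors 6 rose and 1 fell (SDHAF2, which loads the flavin onto SDHA, at -0.47, edgeR adjusted p = 0.0146), and ACAD9 had the greatest log2 change (0.69, not past the test). The citric acid cycle had 2 of 14 higher (IDH2 and SUCLG2) and 1 lower (CS, citrate synthase, at -0.40, edgeR adjusted p = 0.00721). Of 12 genes of pyruvate dehydrogenase and its kinases and phosphatases 2 rose and 2 fell, with PDK2, a kinase that inhibits it, at 1.29 and PDP1, a phosphatase that activates it, at -1.62 (edgeR adjusted p = 2.60e-05 and 9.46e-06). Of 24 genes of mitochondrial biogenesis 1 rose (YY1, 0.38, edgeR adjusted p = 0.00788) and 5 fell (GABPB1, LRPPRC, PNPT1, POLG2 and PPRC1), down to PPRC1, a coactivator of the PGC-1 family, at -0.71 (edgeR adjusted p = 0.00110).

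Cytochrome c and coenzyme Q genes had 1 of 13 higher and 2 lower, from PDSS1 (-0.80, edgeR adjusted p = 0.00580) to COQ10A (0.61, not past the test). Glycolysis had 3 of 17 higher and 4 lower, from HK2, a hexokinase (-0.57, edgeR adjusted p = 0.00473), to PFKL, a phosphofructokinase (0.66, edgeR adjusted p = 0.00196). The hypoxia list had 2 of 11 lower and 0 higher (edgeR, 0 at an unadjusted p under 0.05 and with DESeq2), from DDIT4 (-1.29, edgeR adjusted p = 1.29e-06) to ADM (0.46, not past the test). The mitochondrial antioxidant list had 4 of 9 higher and 0 lower (edgeR, 0 at an unadjusted p under 0.05 and with DESeq2), from PRDX3 (-0.16, not past the test) to GPX4 (0.69, edgeR adjusted p = 7.45e-05). Of mitochondrial ribosomal proteins 15 of 76 rose and 9 fell, and of cytosolic ribosomal proteins 2 of 80 rose and 6 fell. Over all genes tested 13.4% rose and 14.2% fell, against 17.6% and 23.5% for glycolysis and 14.3% and 7.14% for the citric acid cycle. With lists this short, such counts were not read as results about the lists.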

How the data were processed

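Single-cell RNA-seq was measured on 5 plates, and each plate counted as a single sample, since its cells share their source. Per the labels and methods, the authors aligned reads to the human reference transcriptome with BWA (the submitters' processing notes name hg38; for BWA the version was not given in the sources used here) and deposited raw UMI counts per gene and well, without normalization. The kept cells followed the study's filter: genes listed in all 5 libraries and seen in at least 10 wells, more than 2000 genes, and under 25% MT- UMIs with the spike-ins in the total. The members and gene lists were chosen with earlier results of these data known.

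Counts were summed per library, or per library and MT- tertile, and tested with edgeR 4.0.16 in R 4.3.3 (TMM, filterByExpr, two-sided quasi-likelihood F test; p values over all genes tested adjusted by Benjamini-Hochberg, threshold 0.05). The tertile tests used nuclear genes and the library as a block. SEs are those of the fit, and SDs are between libraries. DESeq2 1.42.0 was an alternative, beside other filters, size factors, thinning to 5000 UMIs, a flow cell term and each library left out. Spike-ins with the flow cell, tertiles by mitochondrial mRNAs and the removal of a trend on GC content were added after seeing the data. The fits were also run on simulated data with a fixed dispersion for all genes and planted changes greater than most reported here. That run says little about smaller changes, and its outcome is not used here. Genes named are the 10 greatest rises and falls among called members with libraries that do not overlap, the member with the most UMIs per complex, SDHA to SDHD, the isoforms, the 5 greatest of each direction for the MT- share and its interaction, and the extremes of each other list. Other genes named in the text were chosen after their values were seen, and some values that the rule would name are not reported here. Promoters came from RefSeq and transcripts from GENCODE v44.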

Additional observations from a re-analysis of the deposited data

Results flagged for a closer look

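The difference between the high and low tertiles of MT- share was itself different between 1 and 4 dpi for 10 of 86 genes, by the interaction term in edgeR (4 dpi minus 1 dpi, log2). The 8 positive ones were 9.30% of the 86, near the 7.61% of all genes, and the 2 negative ones 2.33%, below the 9.33% of all genes. With cells split at the median MT- share 3.45% were positive, against 2.63% of all genes. It was positive for NDUFS5 (1.05), ATP5G1 (0.92), which encodes the c ring of complex V, COX6C (0.75), NDUFB1 (0.72), NDUFB10 (0.70), NDUFA3 (0.70), ATP5G3 (0.54), another c ring gene, and NDUFA1 (0.53). It was negative for NDUFA5 (-0.78) and SDHB (-0.66). NDUFB10 and NDUFB1 were also among the genes with the greatest rises from 1 to 4 dpi, and SDHB was among those that fell. NDUFS5 was the only one of the 10 that passed the test whichever library was left out, and its interaction was then between 0.86 and 1.15.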

How the results depend on the processing

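No paired analysis was possible because the libraries of the 2 time points share no replicate numbers. Against 22 genes higher and 5 lower at 4 dpi, DESeq2 gave 19 and 3, spike-in size factors 0 and 0 (median log2 change of all genes -0.20 and of these genes -0.07), spike-ins with the flow cell as a term 10 and 4, a 15% MT- maximum 14 and 6, thinning to 5000 UMIs 12 and 2 of 85, and cells weighted equally 18 and 9. Leaving out each library of 1 dpi gave between 14 and 21 higher (15.6% to 23.3%, against 11.1% to 11.6% of all genes) and between 3 and 4 lower. No call changed its direction in any of these. Against 52 higher in the high MT- tertile, thinning gave 29 of 79 (36.7%, against 7.25% of all genes). Leaving out each library gave between 26 (without library 10, 30.2% against 2.31%) and 45 (without library 8, 52.3% against 7.28%). Against 8 higher and 2 lower in the interaction, cells split at the median MT- share gave 3 and 1, bins of depth 6 and 1, and leaving out each library between 1 and 7 higher and 0 and 2 lower. In the bins of depth the 6 were 6.98% of the genes tested, against 6.36% of all genes. The log2 ratio of the OXPHOS share was 0.0496 with a 15% MT- maximum, and the median rho of the 5 libraries was 0.13 with all human UMIs as the denominator. The cause of these moves was not tested. Genes under 100 UMIs in all, 8 of the 95, are limited by counting.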

Other observations

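ATP5G1, ATP5G2 and ATP5G3 encode the same mature c subunit of complex V, and ATP5G1 took 12.7%, 13.0% and 12.9% of their UMIs at 1 dpi and 14.7% and 14.3% at 4 dpi. ATP5G3 took 40.6%, 42.0% and 40.5% at 1 dpi and 37.9% and 37.0% at 4 dpi. In both genes the time points did not overlap, and neither gene passed the test by itself. NDUFA4L2 took between 0.274% and 0.669% of the UMIs of NDUFA4 and NDUFA4L2. UQCRHL took between 20.5% and 33.3% of the UMIs of UQCRH and UQCRHL, which may share reads.

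In cells thinned to 5000 UMIs, Spearman's rho between the shares of complexes IV and V was between 0.54 and 0.64 in the 5 libraries, and that between complexes I and IV between 0.51 and 0.60. Between complexes II and I it was between 0.08 and 0.16, with fewer UMIs behind it. The OXPHOS share and the cytosolic ribosomal share had a rho between 0.51 and 0.71. The shares in a pair have the same denominator and the cells of a library the same plate, and no test was made.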
